A study of Sus scrofa with 40 samples.

Results

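Trapezius and hamstring muscle of Chalu black pigs were compared by RNA sequencing across every gene of the deposited table. The comparison used 20 of the series' 40 libraries, 10 of trapezius (TM) and 10 of hamstring (HM), chosen by the sample titles. Of the 21280 genes listed, 11713 had enough reads to be tested. The animals were male, shared a sire and an environment, were fasted before slaughter and were sampled on the left side of the carcass, with fascia avoided. The series also holds longissimus dorsi (LDM) and pork belly (PB), which entered the same fit so that all 4 cuts shared an estimate of the spread. No genotype or treatment differs between the cuts. The labels do not say whether libraries with the same number came from the same pig, or what each number stands for. P-values therefore measure the spread between libraries, which may be partly technical.

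The trapezius runs from the neck and the trunk to the shoulder blade, and the hamstring group lies behind the thigh bone. HOX genes encode homeobox transcription factors that sit in 4 clusters, HOXA to HOXD, and are used in the order of their place in the cluster along the head-to-tail axis and along the limb. Anterior genes have low group numbers and posterior genes high ones. Adult muscle and its connective tissue cells are known to keep part of this positional expression. Slow and fast muscle fibres use different isoforms of myosin and troponin, so meat cuts are often compared by those isoforms, by their oxidative enzymes and by their fat cell content.

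Read depth was similar between the cuts, with library totals of 13994947 to 17735722 counts in TM and 13301341 to 17122790 in HM. Skeletal muscle markers were abundant in both: ACTA1, the skeletal actin, averaged 78533 CPM (read counts relative to library size) in TM and 62287 CPM in HM, and CKM, the muscle creatine kinase, 29754 CPM in TM and 28890 CPM in HM. By their correlation with the mean profile of each cut, 16 of the 20 libraries lay nearest to their own cut. TM3 lay nearest to HM, TM7 to LDM, HM6 to TM and HM9 to LDM. HOXA13 was at 0 CPM in TM3 and in TM7, 13.4 CPM in HM6 and 13.8 CPM in HM9. This is no independent check of the labels, as HOXA13 is among the genes that separate TM from HM here. HOXA13 was also at 0 CPM in every LDM library, so it cannot tell TM7 from LDM. Results that change without these 4 libraries are given as such.

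Few genes separated the cuts, and the largest differences were in genes of body position. At an adjusted p under 0.05 (edgeR's quasi-likelihood test, Benjamini-Hochberg over all genes tested) 90 genes, or 0.768% of those tested, differed between TM and HM. Of these, 48 were higher in TM (0.41%) and 42 lower (0.359%). At 2-fold or more, 19 were higher (0.162%) and 32 lower (0.273%). The median log2 change over all tested genes was -0.02, with quartiles of -0.20 and 0.15. At an unadjusted p under 0.05 there were 1489 genes (12.7%). DESeq2 called 199 genes (1.7%), limma-voom with quality weights 312 (2.66%), and edgeR 213 (1.82%) with the library number as a block and 117 (0.997%) without the 4 libraries nearest another cut. The total was 52 without TM2 or without TM4. In the same fit the other pairs of cuts gave 2706 to 4880 genes. TM and HM had the lowest median size of change of the 6 pairs, 0.17 against 0.29 to 0.39 on the log2 scale, with nearly the same median standard error (0.20 in each pair).

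**Figure D1:**
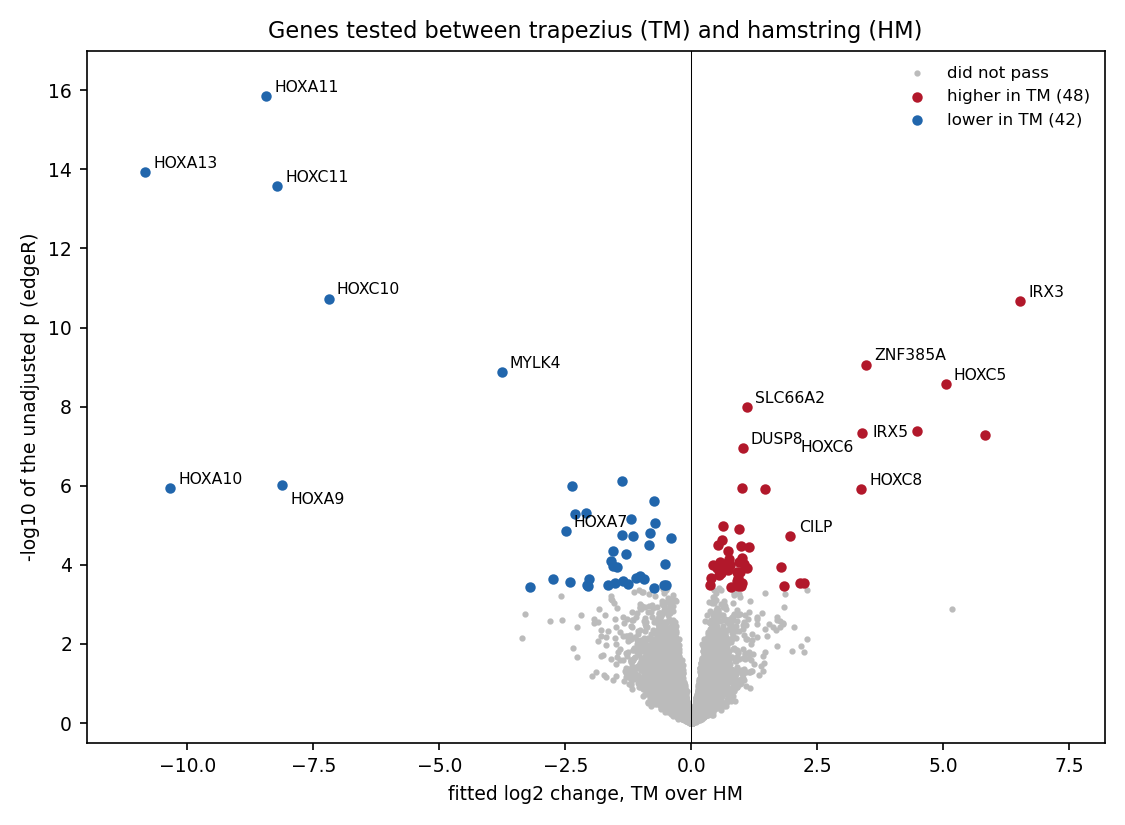
Each point is a gene tested between TM and HM; the horizontal axis is the fitted log2 change (TM over HM) and the vertical axis is -log10 of the unadjusted p. The 48 genes higher in TM are red, the 42 lower are blue, and posterior HOX genes stand far to the left.

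HOX genes made up 12 of the 90 genes that passed. The table lists 38 of them, 25 were tested, and 48% of those passed, with 4 higher and 8 lower in TM. Of the 10 highest and 10 lowest changes among genes with a symbol and at least 1 CPM in one of the cuts, 3 of the highest and 7 of the lowest were HOX genes. The libraries of the cuts did not overlap for 20 genes of all those tested (0.171%), and 7 of these were HOX genes, each lower in TM, where 0.0683% of all genes had TM below HM throughout. HOXA10, HOXA11, HOXA13 and HOXC11 among them had enough reads to be tested only through HM, so only a lower TM level was open to them. In bulk tissue, fewer cells of a type and less RNA per cell cannot be told apart.

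Posterior HOX genes were close to absent from trapezius. HOXA13, the last gene of its cluster and a marker of the distal limb and hind body in mouse, had no read in any of the 10 TM libraries, against 7.11, 13.9 and 26.9 CPM in HM (lowest, median and highest). That is 0 counts in TM against 2310 in HM, at least 784-fold lower in TM when 3 counts over the cut are allowed for a count of 0. HOXA10 had 1 count in all TM libraries, in TM7, and 6.31, 20.2 and 39.1 CPM in HM. Its HM level was 2929.8 times the TM level by total counts (95% counting interval 525 to 1.16e+05). Leaving out TM7, HOXA10 was at least 876-fold lower in TM. All 10 HM libraries lay above all 10 TM libraries for both genes. HOXA13 averaged 0 CPM in LDM and 0.063 CPM in PB, so its near absence was not limited to TM. HOXA10 averaged 1.77 CPM in LDM and 6.08 CPM in PB.

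HOXA11, which patterns the middle segment of the limb in mouse, had 2 counts in TM, both in TM6, and 1075 in HM. Its level per library was 3.74, 7.01 and 9.88 CPM in HM, and the ratio of HM to TM by counts was 547 (151 to 4526); leaving out TM6, the gene was at least 331-fold lower in TM. HOXC11 had 3 counts in TM and 1206 in HM, a ratio of HM to TM of 409 (139.7 to 1988), or 1115 (199.8 to 44092) without TM6, which held 2 of the 3 counts, with 3.75, 8.40 and 11.5 CPM in HM. HOXC10, a lumbar and hindlimb gene in mouse, was the most abundant posterior HOX gene in HM at 30.8, 61.5 and 81.2 CPM, against 0, 0.032 and 2.98 CPM in TM. Its fitted log2 change was -7.20 ± 0.78 (SE, adjusted p = 5.0e-08). The 2.98 CPM came from TM7, and without that library the change was -8.78 ± 0.83. TM and HM did not overlap for any of the 3 genes. HOXA11 averaged 0.042 CPM in LDM and 0.049 CPM in PB, and HOXC11 0.163 CPM in LDM and 0.063 CPM in PB. HOXC10 averaged 26.2 CPM in LDM and 1.21 CPM in PB.

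All 5 tested members of HOX groups 10 to 13 fell in TM, where 0.359% of all genes did. Of these, HOXA11, HOXA13 and HOXC11 averaged at most 0.163 CPM in each of TM, LDM and PB. They reached the low-count filter only through HM, as did HOXA10. HOXA10 had reads in 1 TM, 6 LDM and 4 PB libraries, with medians of 0, 0.070 and 0 CPM. Only a fall in TM was thus open to HOXA10, HOXA11, HOXA13 and HOXC11. The other 7 of the 12 members in the table were below the low-count filter. Of those, HOXD11 had 0 counts in TM and 43 in HM (at least 14.6-fold lower in TM) and HOXD13 had 0 in TM and 19 in HM (at least 6.45-fold lower in TM). HOXB13, HOXC12 and HOXD12 had no count in either cut. Counting intervals and floors cover counting error only.

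**Figure D2:**
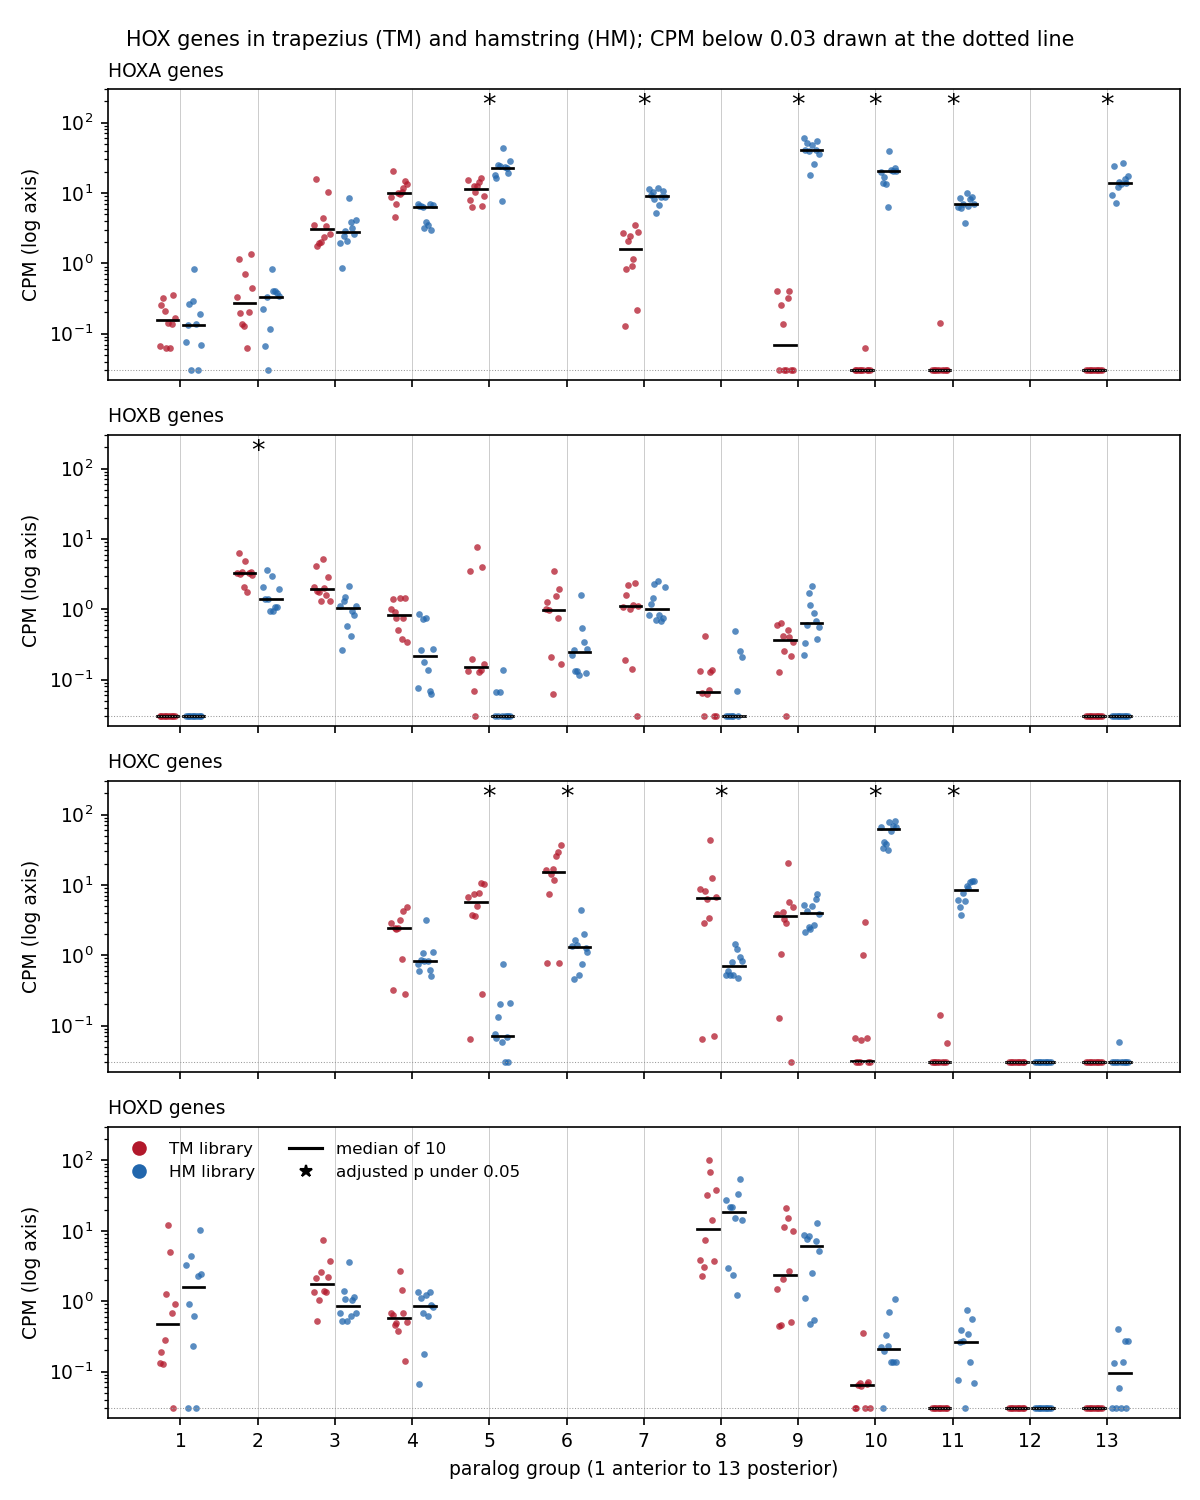
Each point is a library's level (CPM, log axis) of a HOX gene, with TM left of HM within each paralog group and a bar at the median of 10 libraries; a star marks an adjusted p under 0.05. TM points of HOXA9 to HOXA13, HOXC10 and HOXC11 lie at or near 0, while HOXC5, HOXC6 and HOXC8 are higher in most TM libraries.

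Along the HOXA cluster (chromosome 18, 45373440 to 45480413, Sscrofa11.1) the difference was large at the posterior end and small or of the other sign at the anterior end. Of its 8 tested genes, 6 fell in TM. HOXA9 had 0, 0.069 and 0.405 CPM in TM against 17.7, 40.6 and 60.6 CPM in HM, a log2 change of -8.11 ± 1.40 (adjusted p = 7.2e-04). HOXA7 had 0.128, 1.61 and 3.51 CPM in TM against 5.14, 9.05 and 11.7 CPM in HM (-2.50 ± 0.50, adjusted p = 0.0057), and neither gene's libraries overlapped between the cuts. HOXA5 overlapped, with 6.41, 11.3 and 16.3 CPM in TM against 7.65, 22.9 and 43.6 CPM in HM (-1.11 ± 0.27, adjusted p = 0.037). The HOXA5 call was lost in 10 of the 20 fits that leave out a library, and its adjusted p reached 0.11 in other settings, among them the fit without the 4 libraries nearest another cut. HOXA4, at the next position, had a log2 change of 0.96 ± 0.29 (adjusted p = 0.10), and HOXA3 one of 0.56 ± 0.39 (adjusted p = 0.59). HOXA9, HOXA10 and HOXA11 overlap an unnamed antisense gene model, which itself had 0 counts in TM and 15 in HM. The labels and file headers do not state whether HTSeq counted by strand, so reads of such overlaps cannot be told apart.

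The HOXC cluster (chromosome 5, 19151169 to 19268257) held opposite changes within a short stretch: 3 genes rose, 2 fell and 2 did not pass. HOXC5 had 0.064, 5.79 and 10.7 CPM in TM against 0, 0.072 and 0.760 CPM in HM (log2 change 5.04 ± 0.66, adjusted p = 3.9e-06). Without HM6, which held the 0.760 CPM, the change was 5.68 ± 0.72. HOXC6, a gene of the neck and thorax in mouse, had 0.768, 15.1 and 37.2 CPM in TM against 0.464, 1.3 and 4.42 CPM in HM (3.38 ± 0.50, adjusted p = 4.9e-05). HOXC8, a thoracic gene in mouse, had 0.064, 6.45 and 43.0 CPM in TM against 0.478, 0.701 and 1.45 CPM in HM (3.37 ± 0.59, adjusted p = 7.2e-04). The highest HOXC8 value was in TM7, and without it the change was 2.71 ± 0.53. The limma-voom fit with quality weights did not call HOXC8 (adjusted p = 0.29). LDM and PB averaged 2.92 and 2.70 CPM for HOXC5, 20.6 and 10.1 CPM for HOXC6, and 29.8 and 11.4 CPM for HOXC8. Levels above those of HM were thus not limited to TM.

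HOXC9 lies between the genes that rose and the genes that fell. Its log2 change was -0.02 ± 0.50 (adjusted p = 0.99), with 0, 3.56 and 20.4 CPM in TM against 2.12, 4.04 and 7.54 CPM in HM, and its sign turned under upper-quartile scaling (0.03). HOXC4, at the anterior end, had a change of 1.20 ± 0.41 (adjusted p = 0.17). Outside the cluster, 16 genes within 500 kb were tested and 2 passed, both higher in TM. Over all tested genes 0.768% passed and 0.41% were higher. Within 500 kb of the HOXA, HOXB and HOXD clusters, 0 of 3, 0 of 11 and 0 of 2 tested genes passed. ZNF385A, a zinc finger gene 312145 bases from HOXC5, had 27.4, 51.8 and 94.3 CPM in TM against 1.44, 4.87 and 11.4 CPM in HM (3.47 ± 0.43, adjusted p = 1.7e-06), with no overlap between the cuts. ZNF385A averaged 30.2 CPM in LDM and 55.4 CPM in PB. CBX5, a heterochromatin protein gene named here after its values were seen, changed by 0.56 ± 0.13 (adjusted p = 0.022).

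The HOXB and HOXD clusters gave 1 call between them. HOXB2, an anterior gene of the hindbrain and neck in mouse, had 1.78, 3.27 and 6.27 CPM in TM against 0.934, 1.40 and 3.56 CPM in HM (0.92 ± 0.24, adjusted p = 0.047). That call was lost in 14 of 20 fits that leave out a library, without the filter (adjusted p = 0.063) and when the 20 libraries were fitted alone (0.092). HOXB5 was below the filter with 232 counts in TM and 4 in HM, most of them in TM2 (3.52 CPM), TM6 (7.79 CPM) and TM9 (3.93 CPM), against at most 0.194 CPM in the other TM libraries. All 5 tested HOXD genes failed the test (edgeR), with log2 changes of -0.46 for HOXD1 to 1.04 for HOXD3, and HOXD8 and HOXD9 spread widely in both cuts. HOX groups 6 to 9 together gave 2 higher and 2 lower of 9 tested, and groups 1 to 5 gave 2 higher and 1 lower of 11 (3 and 0 without the 4 libraries nearest another cut). Over all tested genes 0.41% were called higher and 0.359% lower.

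The TM libraries were not alike in these genes. TM2 and TM9 had HOXC5 at 0.064 and 0.286 CPM, HOXC6 at 0.768 and 0.786 CPM and HOXC8 at 0.064 and 0.071 CPM, while each of the other 8 TM libraries exceeded every HM library for all 3 genes. Both libraries still had ZNF385A at 51.1 and 78.0 CPM, above the HM maximum of 11.4 CPM, and no HOXA13 read. TM7 stood at the other end, with HOXC8 at 43.0 CPM, HOXC9 at 20.4 CPM and HOXC10 at 2.98 CPM. In LDM these genes averaged 29.8, 18.8 and 26.2 CPM. Whether place of sampling within the muscle differed between libraries is not given in the labels.

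**Figure D3:**
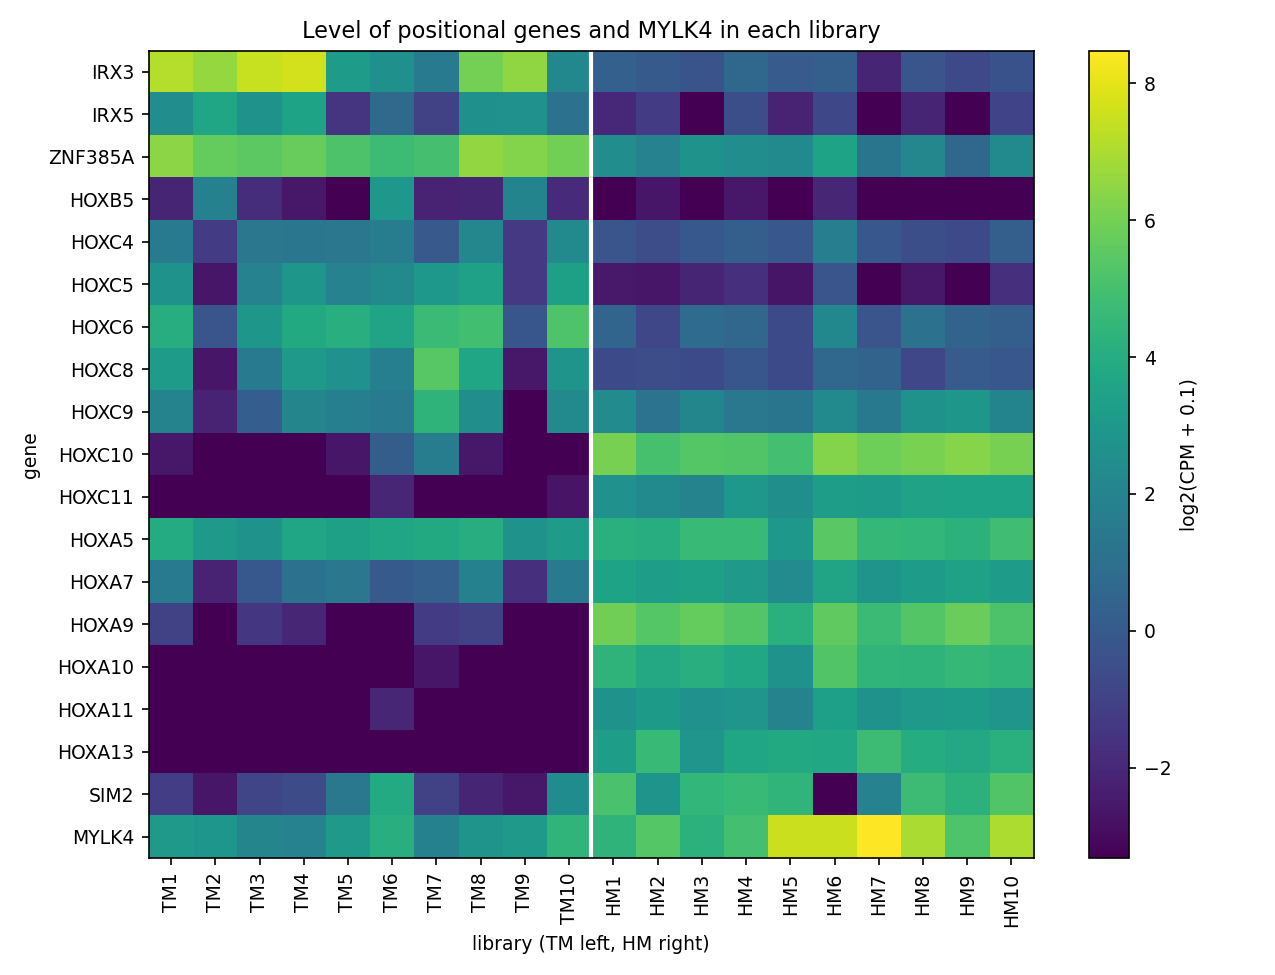
Level of each gene, log2(CPM + 0.1), in each library, with TM1 to TM10 left of the white line and HM1 to HM10 right of it. TM2 and TM9 are dark for HOXC5 to HOXC9, TM5, TM6, TM7 and TM10 are darker for IRX3 than the other TM libraries, and the posterior HOX rows are dark across TM and bright across HM.

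The largest rise among the genes that passed was in an Iroquois homeobox gene, IRX3. IRX3 (chromosome 6, 31046098 to 31048822), a patterning factor of the neural tube and limb, had 2.92, 76.7 and 206 CPM in TM against 0.137, 0.840 and 1.47 CPM in HM (log2 change 6.52 ± 0.71, adjusted p = 5.0e-08). All TM libraries lay above all HM libraries, but TM fell into a low and a high set: 2.92 to 9.17 CPM in TM5, TM6, TM7 and TM10, and 63.4 to 206 CPM in the other 6. IRX5, its neighbour, had 0.253, 5.66 and 12.5 CPM in TM against 0, 0.143 and 0.603 CPM in HM (4.47 ± 0.66, adjusted p = 4.7e-05), and 8 of 10 TM libraries exceeded the HM maximum. The other 8 of the 10 tested head and neck muscle factors did not pass. IRX3 averaged 7.36 CPM in LDM and 45.4 CPM in PB, so a high level was not limited to TM.

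IRX5 and HOXC5 did not reach the filter when the 20 libraries were fitted without LDM and PB, so that fit did not test them. Among trunk and limb factors, SIM2, a transcription factor of ventral limb muscle in chick and mouse, had 0.064, 0.417 and 14.5 CPM in TM against 0, 21.7 and 38.4 CPM in HM (-3.20 ± 0.82, adjusted p = 0.047). The overlap came from TM6 (14.5 CPM), TM10 (5.24 CPM) and HM6 (0 CPM), and the call was lost in 15 of 20 fits without a library, although without TM6 the change was -4.23 ± 0.85 (adjusted p = 0.0056). It was also lost under upper-quartile scaling (adjusted p = 0.054), with mitochondrial genes out of the scaling (0.052), without the filter (0.073), with the 20 libraries fitted alone (0.085) and without the 4 libraries nearest another cut (0.059). ZIC4 (1.84 ± 0.53, adjusted p = 0.087), ZIC1 (1.46 ± 0.48, adjusted p = 0.15) and EN1 (1.5 ± 0.52, adjusted p = 0.18) had positive changes that did not pass. TBX15 and SIM1 did not pass either, at -0.26 ± 0.17 and 0.41 ± 0.83.

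Hindlimb factors were mostly too low to test. TBX4, the T-box gene of hindlimb identity, had 5 counts in TM and 165 in HM, at 0, 0 and 0.214 CPM in TM against 0.461, 1.08 and 2.28 CPM in HM, and the cuts did not overlap. It was below the filter, and the fit without a filter gave -4.76 ± 0.60 (adjusted p = 6.2e-06). PITX1, its upstream regulator in mouse hindlimb, had 37 counts in TM and 45 in HM. TBX5, the forelimb counterpart, had 6 counts in TM and 21 in HM. PAX3, a factor of muscle precursors, had 78 counts in TM and 3 in HM, a ratio of TM to HM of 25.5 (8.42 to 126), and was also below the filter. None of the 5 tested hindlimb and lateral plate factors passed with edgeR. At an unadjusted p under 0.05 there were 2, both lower, against 12.7% of all tested genes. DESeq2, limma-voom and the fit with the library number as a block each called 1. SHOX2 was at -0.94 ± 0.33 (adjusted p = 0.19).

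Further regulators of position, named here after their values were seen, also passed. ALDH1A2, the enzyme that makes retinoic acid in the embryo, had 0.451, 3.69 and 9.53 CPM in TM against 6.08, 13.5 and 35.03 CPM in HM (-2.10 ± 0.40, adjusted p = 0.0026). MEIS1, a homeobox partner of HOX proteins, had 0.822, 1.88 and 3.85 CPM in TM against 0.066, 0.325 and 1.24 CPM in HM (1.83 ± 0.47, adjusted p = 0.046), a call lost in 13 of 20 fits without a library, without the filter (adjusted p = 0.051), without the 4 libraries nearest another cut (0.057) and without PB1 (0.0501). ZNF503, a zinc finger repressor, had 33.7, 61.7 and 120 CPM in TM against 4.65, 23.6 and 46.1 CPM in HM (1.46 ± 0.26, adjusted p = 7.2e-04).

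Outside the positional genes, the steepest fall was in MYLK4, a kinase of the myosin light chain kinase family. It had 3.56, 7.52 and 20.7 CPM in TM against 19.0, 83.2 and 356 CPM in HM, a log2 change of -3.77 ± 0.48 or 13.6-fold lower in TM (adjusted p = 2.3e-06). Only TM10 lay above the lowest HM library, and the HM libraries differed by over an order of magnitude among themselves. MYLK4 averaged 2.08 CPM in LDM and 4.76 CPM in PB. The model overlaps WRNIP1 on the opposite strand.

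TRIM55, HSPB3 and NFATC2 also fell. TRIM55, a ubiquitin ligase of the sarcomere, had 14.7, 24.9 and 40.4 CPM in TM against 39.3, 51.8 and 162 CPM in HM (-1.29 ± 0.29, adjusted p = 0.015); without HM7, its highest library, the adjusted p was 0.067. HSPB3, a small heat shock protein of muscle, had 21.1, 26.0 and 34.96 CPM in TM against 19.3, 60.2 and 122 CPM in HM (-1.37 ± 0.28, adjusted p = 0.0069), but HM6 lay among the TM libraries and HM8 below them all. NFATC2, a calcineurin-driven transcription factor, had 4.86, 9.30 and 23.6 CPM in TM against 9.99, 22.6 and 82.7 CPM in HM (-1.60 ± 0.36, adjusted p = 0.021), and the call was lost without HM5 or without TM2 (adjusted p of up to 0.078). TRIM55 was the 1 passing member of 16 tested calpain and proteolysis genes, HSPB3 of 18 heat shock genes and NFATC2 of 23 fibre type transcription factors. Of all tested genes, 0.359% were called lower.

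PEG10, an imprinted gene of retrotransposon origin, had 8.68, 20.5 and 112 CPM in TM against 39.1, 193 and 345 CPM in HM (-2.75 ± 0.68, adjusted p = 0.038). The 112 CPM was TM9, the other TM libraries lay below every HM library, and without TM9 the change was -3.39 ± 0.69. The call was lost in 14 of 20 fits without a library, without the filter (adjusted p = 0.064) and without the 4 libraries nearest another cut (0.063). Genes named after their values were seen include SEC14L5, a lipid transfer domain gene (-2.38 ± 0.41, adjusted p = 7.2e-04), SLC3A1, an amino acid transporter subunit at 0.322 CPM in TM and 1.51 CPM in HM on average (-2.31 ± 0.44, adjusted p = 0.0027), and OTUD1, a deubiquitinase (-2.42 ± 0.60, adjusted p = 0.044, lost in 12 of 20 fits without a library and, at 0.068, without the filter).

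Among the genes that rose, SLC66A2, a membrane transporter gene, had 20.8, 29.4 and 35.9 CPM in TM against 6.42, 12.1 and 20.4 CPM in HM (1.09 ± 0.15, adjusted p = 1.3e-05), with no overlap. DUSP8, a phosphatase of MAP kinases, had 72.6, 83.3 and 126 CPM in TM against 27.5, 40.7 and 71.3 CPM in HM (1.01 ± 0.16, adjusted p = 9.8e-05) and did not overlap either. It was named after its values were seen, and its model overlaps TNNT3 on the opposite strand. CILP, a cartilage and matrix protein, had 52.6, 121 and 320 CPM in TM against 9.44, 36.2 and 82.2 CPM in HM (1.96 ± 0.40, adjusted p = 0.0069), with 9 TM libraries above the HM maximum.

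KRT80, a keratin, had 4.76, 22.3 and 107 CPM in TM against 1.13, 5.07 and 27.6 CPM in HM (2.23 ± 0.56, adjusted p = 0.045). CEACAM1, a cell adhesion molecule, had 1.33, 7.47 and 16.8 CPM in TM against 0.274, 1.43 and 3.55 CPM in HM (2.14 ± 0.54, adjusted p = 0.044). Their libraries overlapped, and the calls were lost in 11 (KRT80) and 12 (CEACAM1) of 20 fits without a library. Without the filter both were lost (adjusted p = 0.068 for KRT80 and 0.062 for CEACAM1). KRT80 was also lost with the 20 libraries fitted alone (0.085), and CEACAM1 without the 4 libraries nearest another cut (0.067). CEACAM1 averaged 0.687 CPM in LDM and 1.10 CPM in PB. CDH15, the M-cadherin of satellite cells, was the 1 passing member of 18 tested satellite and myogenic genes, at 14.4, 20.01 and 38.4 CPM in TM against 8.18, 12.5 and 18.0 CPM in HM (0.73 ± 0.17, adjusted p = 0.027). That list had a median log2 change of -0.14, with 5 of its 18 tested genes positive. Of all tested genes, 0.41% were called higher. The CDH15 call was lost without any of HM5, HM7, TM1, TM2 or TM4 (adjusted p of up to 0.090) and when the 20 libraries were fitted alone (0.067). MSTN, the growth inhibitor myostatin, did not pass at -1.47 ± 0.42 (adjusted p = 0.089), with 0.190, 0.603 and 0.857 CPM in TM against 0.622, 1.28 and 2.83 CPM in HM.

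Fibre type isoforms did not separate the cuts. MYH7, the slow myosin heavy chain, had 5692, 36627 and 71318 CPM in TM against 7830, 26804 and 41612 CPM in HM (0.50 ± 0.32, adjusted p = 0.54). The single gene model that spans the fast myosins MYH4, MYH1 and MYH2 changed by -0.29 ± 0.23 (adjusted p = 0.65). MYH7 made up 63.2% ± 22.8 of MYH7 plus fast model counts in TM and 53.7% ± 21.3 in HM (SD, n = 10 each), a difference of 9.44 percentage points (two-sided permutation test, p = 0.35, adjusted p = 0.35). The libraries covered nearly the same span, 15.97 to 89.2% in TM and 21.97 to 80.4% in HM.

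The slow troponin shares gave the same picture. TNNI1 was 51.2% ± 22.6 of TNNI1 plus TNNI2 counts in TM and 37.3% ± 19.6 in HM (permutation p = 0.16, adjusted p = 0.27). TNNT1 was 48.6% ± 22.3 of its pair in TM and 34.3% ± 19.4 in HM (p = 0.15, adjusted p = 0.27). TNNC1 was 39.8% ± 20.2 in TM and 31.0% ± 20.3 in HM (p = 0.34, adjusted p = 0.35). P-values of these shares were adjusted over 5 values, and differences were smaller than the SD among libraries of a cut.

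**Figure D4:**
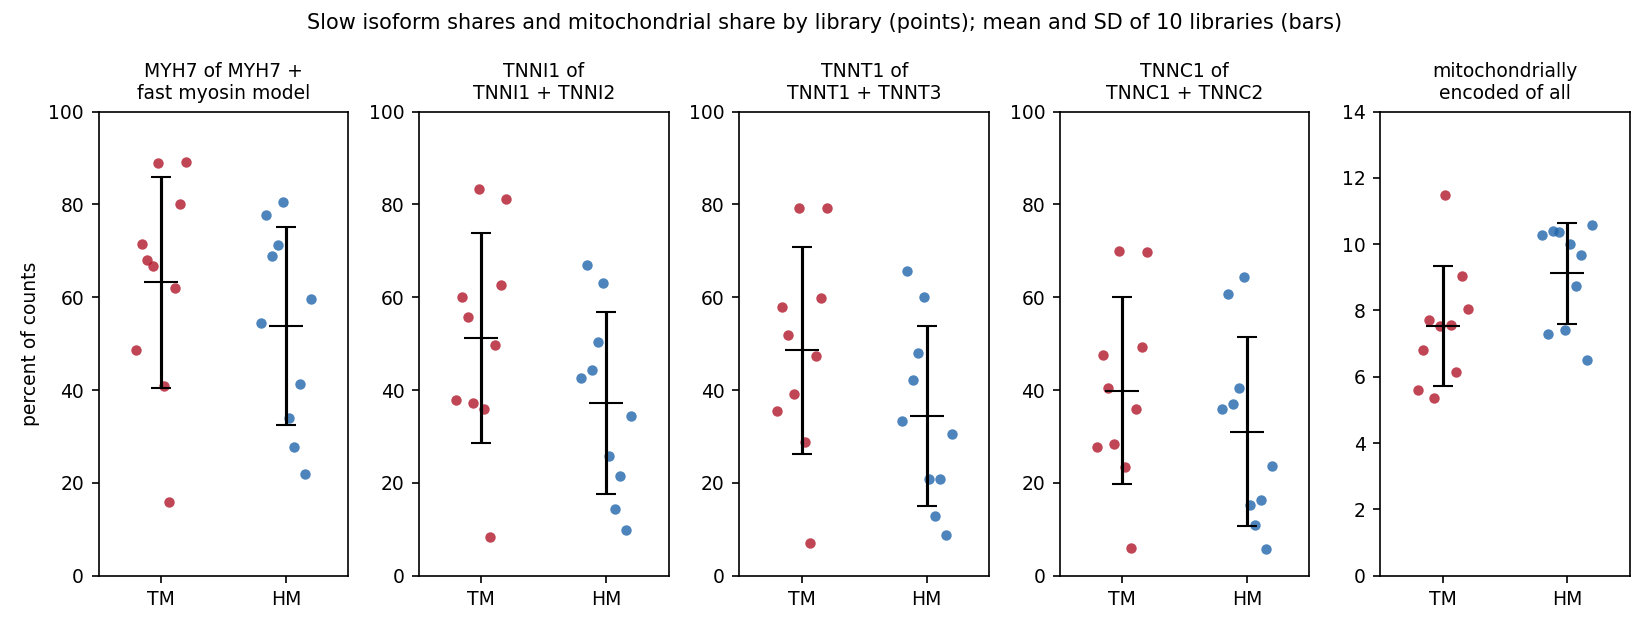
Percent of counts from the slow isoform of each pair, and from mitochondrially encoded genes, in each library (points) with mean and SD of 10 libraries (bars), TM left of HM. TM and HM libraries overlap over most of their range in every panel.

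No gene of the slow list (16 tested) or the fast list (16 tested) passed with edgeR, DESeq2 or limma-voom. At an unadjusted p under 0.05 the slow list had 1 gene, higher, and the fast list 5, all lower. Over all tested genes 12.7% had such a p, a share above that of the slow list and below that of the fast list. The median log2 change was 0.19 for the slow list and -0.36 for the fast list, against -0.02 for all genes. ATP2A2, the slow fibre calcium pump, had the smallest adjusted p of the slow list, with 963, 4830.3 and 6185 CPM in TM against 769.8, 2227 and 3812 CPM in HM (0.90 ± 0.28, adjusted p = 0.12). TNNI2, the fast troponin I, was at -0.50 ± 0.23 (adjusted p = 0.35). MYL2 (0.40 ± 0.31), MYL3 (0.19 ± 0.34), TNNI1 (0.40 ± 0.31) and ATP2A1, the fast fibre pump (-0.28 ± 0.26), did not pass.

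Energy metabolism gave no call with edgeR. Over all tested genes 12.7% had an unadjusted p under 0.05. Of 26 tested fatty acid uptake and oxidation genes none passed, 7 were higher at an unadjusted p under 0.05, DESeq2 called 1 and limma-voom 2, and the median change was 0.28. CD36, the fatty acid translocase, named after its values were seen, was nearest to the threshold (0.66 ± 0.19, adjusted p = 0.086). None of 12 mitochondrially encoded genes passed. Of these, 11 were lower at an unadjusted p under 0.05, DESeq2 called 2 and limma-voom 7, all lower, and the median change was -0.45. Their share of all counts was 7.53% ± 1.80 in TM and 9.12% ± 1.53 in HM (permutation p = 0.048, adjusted p = 0.24). Leaving out 1 library at a time, the adjusted p of that test ran from 0.035 to 0.36. The 0.035 came without TM6, the highest TM library at 11.5%. Without the 4 libraries nearest another cut the adjusted p was 0.27. Nuclear subunits of complex I (32 tested, median -0.03), of complexes III to V (28, -0.03) and citric acid cycle genes (25, 0.01) had no call with edgeR, DESeq2 or limma-voom, and 1, 3 and 2 genes at an unadjusted p under 0.05. Each of those shares was below that of all tested genes. Glycolysis genes (16 tested, median -0.16) had none by any of these tools or at an unadjusted p under 0.05. PPARGC1A, a regulator of oxidative genes, was at -0.02 ± 0.65 (adjusted p = 0.99), a sign that turned under upper-quartile scaling.

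No adipocyte marker or collagen passed with edgeR. Of all tested genes, 12.7% had an unadjusted p under 0.05. The 13 tested adipocyte markers had a median change of 0.71, with 6 higher at an unadjusted p under 0.05 and 1 called by DESeq2 and 0 by limma-voom. Their summed level over 16 listed genes was 975, 1730 and 2556 CPM in TM against 548, 1159 and 1538 CPM in HM. ADIPOQ, the adipocyte hormone adiponectin, had 8.85, 25.7 and 122 CPM in TM against 0.616, 13.6 and 84.5 CPM in HM (0.84 ± 0.57, adjusted p = 0.58). FASN (-0.02 ± 0.28) and SCD (0.06 ± 0.38), enzymes of fat synthesis, did not pass, and the sign of FASN turned under upper-quartile scaling. COL1A1, the main fibrillar collagen, was at -0.03 ± 0.39, a sign that also turned under that scaling. The collagen list had no call among 18 genes by any of these tools or at an unadjusted p under 0.05, with a median of -0.04.

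Blood cell lists were low in both cuts. The leukocyte markers summed to 5.36 to 16.1 CPM in TM against 5.03 to 18.7 CPM in HM, and none of 4 tested passed by any of these tools or at an unadjusted p under 0.05. PTPRC, the common leukocyte antigen, was at -0.49 ± 0.45 (adjusted p = 0.71). Myeloid markers (11 tested) likewise had none, at a median of -0.25. The part of fat and blood cells in the results above was not tested.

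Stress and early response lists had negative medians, and HSPB3 was their 1 call with edgeR. The share of all tested genes at an unadjusted p under 0.05 was 12.7%. The immediate early list summed to 850.2, 1949 and 3995 CPM in TM against 2635, 3253 and 13598 CPM in HM. None of its 22 tested genes passed with edgeR, 7 were lower at an unadjusted p under 0.05, DESeq2 called 3 and limma-voom 0, and the median change was -0.57. EGR1, named after its values were seen, had 30.9, 123 and 273 CPM in TM against 114, 204 and 4903 CPM in HM (-2.58 ± 0.69, adjusted p = 0.064), and the 4903 CPM was HM5. Heat shock genes had a median of -0.66 with HSPB3 passing and 8 of 18 lower at an unadjusted p under 0.05. DESeq2 and limma-voom each called 2 of them, all lower. The proteasome list (34 tested, median -0.16) had 9 lower at an unadjusted p under 0.05, none called by edgeR or DESeq2 and 1 by limma-voom. Handling of the carcass and its order are not given in the labels for each library, and their part was not tested.

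**Figure D5:**
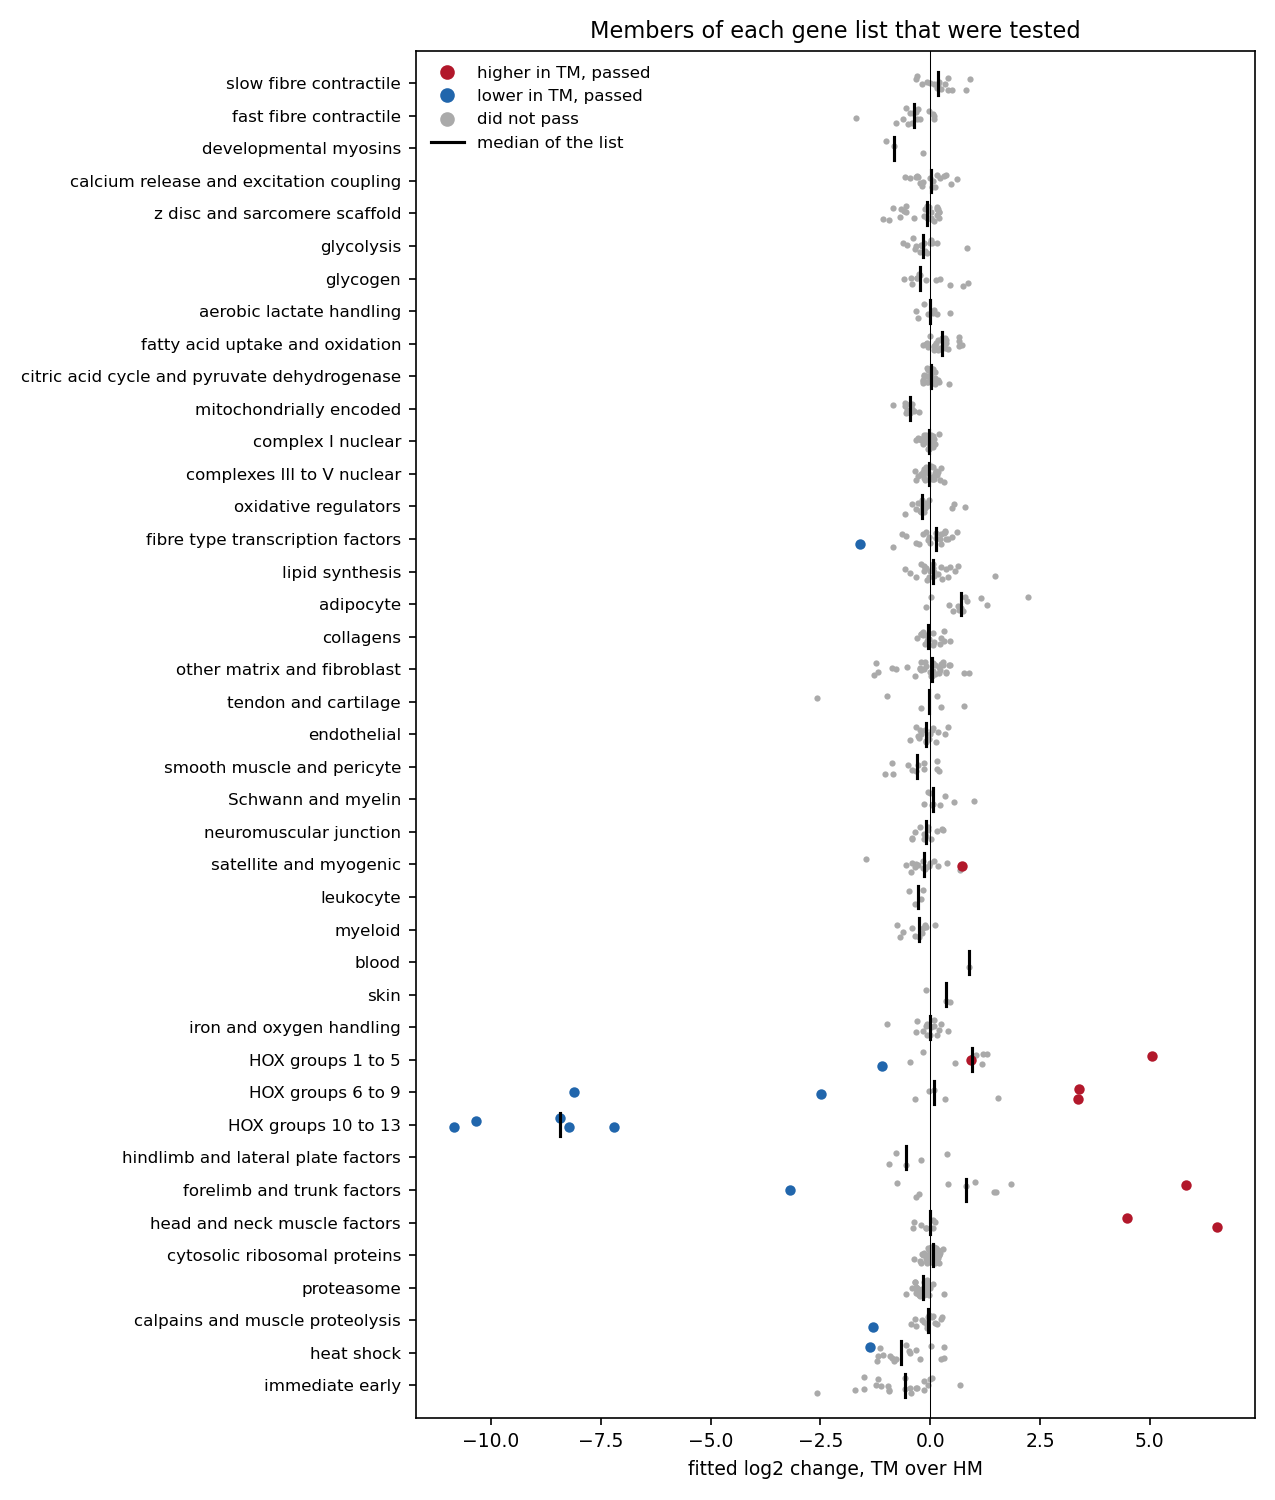
Each point is a tested member of a gene list, placed by its fitted log2 change (TM over HM); larger red and blue points passed the test, and the black bar is the list's median. Passing genes beyond 2 on either side include HOX genes, IRX3, IRX5 and SIM2, while medians of the fibre type, metabolism and cell type lists lie within 1 of 0.

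Across the 41 lists 668 distinct genes were tested and 20 passed, of which 12 were HOX genes. The share of all tested genes that passed was 0.768%. The rest included IRX3, IRX5, SIM2, NFATC2, TRIM55, HSPB3 and CDH15. Of all 90 genes that passed, 29 overlap another gene model and 24 an antisense one, and their reads may be shared with those models.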

How the data were processed

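The authors deposited whole-number read counts per Ensembl gene and FPKM values for 40 libraries, per the file headers. Tools in the submitters' processing notes are HTSeq 0.9.1, HISAT2 2.0.5 and cutadapt 1.15, with the build Sscrofa11.1; roles, settings and strand are not given in the sources used here. Per the labels' protocols, RNA was taken up in Trizol and the kit (KAPA) marks strand. The deposited FPKM equals the count scaled by length and library total for 100% of counts (relative tolerance 0.001) and was used only as an alternative scale for the shares. Counts were fitted over all 40 libraries in edgeR 4.0.16 (R 4.3.3; TMM scaling, filterByExpr by cut, robust quasi-likelihood test), contrast TM minus HM, threshold adjusted p 0.05. CPM is the count scaled to the library total, without the TMM factor. The pipeline was tested on simulated data. Alternatives used DESeq2 1.42.0, limma 3.58.1, other scalings, filters and libraries. Shares were compared by two-sided permutation tests (100000 resamples). Any 2 libraries of a cut differed by a chi-square of 29.8 or more per gene, far over sampling noise, and each was counted once. That value cannot tell whether 2 libraries came from the same pig. Symbols came from the table (14883), from reference gene tables (1288) or were absent (5108). Genes were named as the 10 largest changes and 5 smallest adjusted p in each direction, up to 4 passing members per list, and a list of fixed genes named whatever their result. Of the fixed genes, 1 was not analysed here, and a further gene that the rule names is not reported here. The comparison, lists and named genes were chosen with earlier results of these data known.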

Additional observations from a re-analysis of the deposited data

Results flagged for a closer look

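A library stood apart from the other 9 of its cut, by Dixon's test at 95%, in 23 of 227 gene and cut combinations checked. Chance flags about 1 in 20, or 5%. The test was run on log2 values with 0.5 added to each count, while the values printed below are CPM. On the log2 scale a count near 0 can stand apart though its CPM is close to the others. No explanation was tested.

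HM6, the library nearest to TM, stood apart in 6 genes. It was high in ARID1B (51.9, others 32.7 to 39.2), PLCE1 (18.9, others 4.32 to 8.96), CHPF (25.6, others 13.7 to 18.3), SIM1 (2.35, others 0 to 0.207) and SHOX2 (27.3, others 2.28 to 8.51). It was low in SIM2 (0, others 3.69 to 38.4).

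TM7, the library nearest to LDM, was low in 3 slow fibre genes: MYL3 (137.5, others 491 to 1553), TNNI1 (549.7, others 1683 to 4820) and ATP2A2 (962.9, others 2361 to 6185). It held the only HOXA10 count of TM (0.0635, others 0).

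Other libraries stood apart in 13 cases. TM6 held both HOXA11 counts of TM (0.143, others 0), and HM5 had the lowest HOXA11 level of HM (3.74, others 6.19 to 9.88). HM7 was low in IRX3 (0.137, others 0.503 to 1.48) and high in TRIM55 (162, others 39.3 to 67.4). TM10 was low in PDE7B (10.1, others 21.6 to 46.4). TM4 was low in SLC3A1 (0, others 0.130 to 0.810), as was HM5 (0.409, others 0.988 to 2.39). TM1 was low in TRPV4 (0, others 0.127 to 0.857). TM9 was low in RNF123 (76.7, others 112 to 166) and high in PEG10 (112, others 8.68 to 29.3). TM2 was high in TSC1 (115.5, others 49.5 to 77.3). HM9 was low in SLC4A3 (9.36, others 38.9 to 112) and high in TBX15 (1000, others 504 to 711).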

How the results depend on the processing

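Against the 48 genes higher and 42 lower in TM, DESeq2 gave 92 and 107, limma-voom 141 and 171, the fit with the library number as a replicate block 104 and 109, and the 20 libraries fitted alone 29 higher (39.2% of its calls, against 53.3%). At 2-fold, DESeq2 gave 32 and 57, limma-voom 36 and 65, and the fit without HM6, HM9, TM3 and TM7 35 higher. List members called were 35 by DESeq2 and 39 by limma-voom, against 20. Same-numbered libraries had correlated deviations (0.0659 to 0.416, 9 of 10 pairs over 0.1). The best correlation was with the own number for 5 of 10 TM and 6 of 10 HM libraries. Whether same-numbered libraries share a pig was not tested, and the main fit did not pair them. With the library number as a block, 213 genes passed, against 90. Leaving out 1 library gave 27 to 72 higher and 25 to 79 lower genes, 14 to 31 and 19 to 37 at 2-fold, and 15 to 32 list members. The total was 52 without TM2 or without TM4 and 135 without HM6. The mitochondrial share differed by -2.04 to -1.36 percentage points. All 90 genes kept their sign in every fit that tested them, and 38 passed in all 11 alternatives, 40 without each library and 29 in both. Fitted alone, the 20 libraries left 6 of the 90 untested.

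limma-voom moved IRX3 to 5.66, HOXC8 to 2.10, MYLK4 to -3.02, HOXC10 to -9.34, SIM2 to -4.58 and HOXA9 to -8.74. The block moved SIM2 to -3.98 and HOXA9 to -9.26, and leaving out the 4 libraries moved HOXC10 to -8.51. Genes near 0 changed sign without passing: PPARGC1A (0.00763), FASN (0.018), COL1A1 (0.000552) and HOXC9 (0.026) under upper-quartile scaling; FASN (0.0034) and COL1A1 (0.0034) with mitochondrial genes out of the scaling; PPARGC1A (0.0063), FASN (0.0058) and COL1A1 (0.0034) with the 20 libraries alone; COL1A1 with limma-voom (0.11) and the block (0.036); PPARGC1A (0.15) and COL1A1 (0.31) without the 4 libraries. Without single libraries the changes ran from -0.15 to 0.17 (FASN), -0.12 to 0.28 (COL1A1), -0.65 to 0.19 (PPARGC1A), -0.095 to 0.29 (SCD), -0.61 to 0.16 (HOXC9) and -0.053 to 2.64 (SIM1). The cause was not tested.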
